A study of Mus musculus with 16 samples.

Results

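Slitrk5, Fam135b, Gxylt2, Tmtc2, Fhit and Cyp39a1 are 6 genes of the 25745 in the deposited count table. They were chosen from these data because their counts were high in 6DT1 cells carrying a lentivirus and close to 0 in cells carrying an empty vector. The contrast between the vectors therefore chose them, and their values in it are given as a description, with no test. All 6 were among the 14445 genes that passed the filter on low counts.

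6DT1 is a mouse mammary cancer cell line, and its RNA was sequenced in 16 libraries of 4 groups with 4 libraries each. Libraries 1 to 4 came from untreated lentivirus cells, 5 to 8 from lentivirus cells given 1 µM hydrogen peroxide (H2O2) for 24 h, 9 to 12 from untreated empty-vector cells, and 13 to 16 from empty-vector cells given the same H2O2. The series text says that the lentivirus was used to express CLIC4, an intracellular chloride channel family protein. The sample descriptions disagree with it, since they name the lentivirus libraries wild type and those with the empty vector a CLIC4 knockout. Clic4 held 229 ± 10.4 CPM (read counts scaled to library size; SD, n = 4) in untreated and 243 ± 12.9 in treated lentivirus libraries, and 66.3 ± 47.8 and 42.4 ± 2.35 in the empty-vector libraries. Library 11 held 138 CPM of Clic4, and the other 3 untreated empty-vector libraries 42.5 ± 1.93 CPM. It was lower with the empty vector in untreated cells (log2 −1.79, edgeR adjusted p = 0.000288; log2 −2.43, adjusted p = 2.97e-18 without library 11) and in treated cells (log2 −2.52, adjusted p = 1.78e-05). Groups are named by their vector below. No label says whether a group's libraries are from different cultures or clones. The p-values therefore reflect spread between libraries that may be technical.

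Total counts per library ran from 47.1 M to 61.9 M. Library 11 of the untreated empty-vector group differed from the rest, with correlations of 0.9269 to 0.9276 with the rest of its group over log2 CPM of tested genes, against at least 0.9974 for all other pairs within a group. Values that it moves by over 1.5 times or whose call it changes are given with and without it. The keratins Krt8, Krt18 and Krt19 carried the epithelial marker sum, which was 565 to 618 CPM in untreated and 580 to 609 CPM in treated lentivirus libraries, and 940 to 1400 CPM and 921 to 1030 CPM in the empty-vector libraries. The 1400 CPM was that of library 11, with 627 CPM of Krt19. Its 371 CPM of Krt8 lay below every lentivirus library, at least 403 CPM. Epcam and Cdh1, further epithelial markers, stayed at or under 0.126 CPM in every library but library 11, which held 13.0 CPM of Epcam and 1.53 CPM of Cdh1. Cldn4, of the same list, went the other way from the sum outside library 11. It held 0.0646 to 0.172 CPM with the lentivirus and at most 0.0543 CPM with the empty vector, and 2.77 CPM in library 11. The sum of 3 endothelial markers was 79.9 to 85.9 CPM with the lentivirus and 3.53 to 7.72 CPM with the empty vector. With the lentivirus nearly all of it was Cdh5, since Pecam1 stayed at or under 0.567 CPM and Kdr at or under 0.0884 CPM. The highest empty-vector sum was that of library 11, with 3.32 CPM of Pecam1, and the other empty-vector libraries reached at most 4.73 CPM. The sum of 3 basal markers, almost all Trp63, was 3.9 to 5.02 CPM with the lentivirus and 0.124 to 1.43 CPM with the empty vector, or at most 0.22 CPM without library 11. The immune sum was 77.3 to 92.6 CPM with the lentivirus and 218 to 369 CPM with the empty vector, all but a trace of it Cd68, while Ptprc had 0 counts in every empty-vector library. The sum of 4 fibroblast markers was 13.4 to 18.0 CPM with the lentivirus and 17.0 to 21.8 CPM with the empty vector. Within it Col1a1 and Dcn were lower with the empty vector, at most 4.77 and 0.149 CPM against at least 7.12 and 1.7 CPM. Pdgfra and Col1a2 were higher, at least 13.8 and 0.27 CPM against at most 6.16 and 0.195 CPM. The 2 adipocyte markers summed to at most 0.13 CPM. The epithelial, endothelial, basal and immune sums moved with the vector as the 6 genes did, or against it. Not every gene of a list followed its sum. The part of these lists in the results was not tested.

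The 6 genes belong to different pathways. Slitrk5 encodes a membrane protein with leucine-rich repeats that is known from neurons, where it takes part in forming synapses by binding receptor tyrosine phosphatases on the partner cell. Gxylt2 encodes a xylosyltransferase that extends O-linked glucose on the EGF repeats of Notch receptors. Tmtc2 encodes an endoplasmic reticulum protein of a family that attaches O-linked mannose to cadherins. Fhit encodes a hydrolase of diadenosine polyphosphates, and its human counterpart spans a common fragile site and is lost in many carcinomas, breast cancers among them. Cyp39a1 encodes a cytochrome P450 that hydroxylates oxysterols on the way to bile acids and is best known from liver. Fam135b is named here only by its sequence family.

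The genes lie on 5 chromosomes of the mm10 build, with positions from GENCODE vM21. Slitrk5 (ENSMUSG00000033214.10) lies at chr14:111675097-111683141 on the plus strand and Fhit (ENSMUSG00000060579.13) at chr14:9550092-11162035 on the minus strand, far apart on the same chromosome. Fam135b (ENSMUSG00000036800.8) lies at chr15:71431609-71727838 on the minus strand and Gxylt2 (ENSMUSG00000030074.9) at chr6:100704734-100810913 on the plus strand. Tmtc2 (ENSMUSG00000036019.8) lies at chr10:105187663-105574451 on the minus strand and Cyp39a1 (ENSMUSG00000023963.10) at chr17:43667425-43751431 on the plus strand. All but Slitrk5 are long genes. Fhit spans 1610 kb, Tmtc2 387 kb, Fam135b 296 kb, Gxylt2 106 kb, Cyp39a1 84.0 kb and Slitrk5 8.04 kb, beside a median of 19.2 kb over tested genes.

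Since the 6 genes move together between the vectors, the 250 bases before their RefSeq starts are shown for the 3 further members besides Slitrk5 that the RefSeq promoter table (GRCm38.p6) holds. Each reads 5′ to 3′ on the strand of the gene, and capitals mark CG dinucleotides, the sites of DNA methylation in mammals. The windows lie at chr14:111675777-111676026 for Slitrk5, inside the span GENCODE gives the gene, at chr6:100704484-100704733 for Gxylt2, at chr10:105574480-105574729 for Tmtc2, and at chr14:11162036-11162285 and chr14:10453459-10453708 for the upstream and the downstream start of Fhit.
Slitrk5: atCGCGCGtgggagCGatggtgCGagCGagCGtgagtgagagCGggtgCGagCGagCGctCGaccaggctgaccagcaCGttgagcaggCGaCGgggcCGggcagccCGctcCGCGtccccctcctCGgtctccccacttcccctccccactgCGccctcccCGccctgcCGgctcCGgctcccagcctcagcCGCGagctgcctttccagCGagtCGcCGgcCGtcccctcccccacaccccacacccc
Gxylt2: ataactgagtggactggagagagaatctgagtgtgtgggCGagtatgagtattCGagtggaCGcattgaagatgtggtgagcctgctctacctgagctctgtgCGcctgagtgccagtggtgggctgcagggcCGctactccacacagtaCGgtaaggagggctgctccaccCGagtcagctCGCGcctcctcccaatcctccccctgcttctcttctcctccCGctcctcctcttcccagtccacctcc
Fhit, upstream start: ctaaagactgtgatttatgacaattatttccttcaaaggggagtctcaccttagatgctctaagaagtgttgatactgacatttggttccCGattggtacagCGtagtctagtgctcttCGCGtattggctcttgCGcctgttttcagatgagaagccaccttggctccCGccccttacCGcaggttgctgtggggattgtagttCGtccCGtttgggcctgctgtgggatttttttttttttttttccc
Fhit, downstream start: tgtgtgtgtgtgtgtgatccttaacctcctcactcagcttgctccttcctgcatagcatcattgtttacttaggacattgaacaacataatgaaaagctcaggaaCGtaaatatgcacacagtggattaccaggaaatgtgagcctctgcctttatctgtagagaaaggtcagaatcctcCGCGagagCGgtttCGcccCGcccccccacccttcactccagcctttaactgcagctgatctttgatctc
Tmtc2: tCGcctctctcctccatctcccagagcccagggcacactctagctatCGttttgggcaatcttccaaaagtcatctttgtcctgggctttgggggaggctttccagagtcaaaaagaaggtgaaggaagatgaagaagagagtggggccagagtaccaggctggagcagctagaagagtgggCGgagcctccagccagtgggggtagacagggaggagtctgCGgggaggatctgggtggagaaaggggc
Slitrk5 held 30 CG dinucleotides, more than 94.1% of the 32851 windows of this length in the table, whose median was 6 and whose quartiles were 2 and 16. The other windows were nearer the middle, with 10 in Gxylt2, 9 and 6 in the windows of Fhit, and 4 in Tmtc2. A high CG count is thus not shared by the windows. Of 5 motifs searched on both strands, GGGCGG occurred once in the windows of Slitrk5 and Tmtc2 and in each of the windows of Fhit, and was absent from that of Gxylt2. It was present in 32.7% of all windows. CCAAT, present in 33.8% of all windows, occurred once in Gxylt2 and 2 times in the upstream window of Fhit. TATAAA, held by 12.4% of all windows, had no match in those shown. CACGTG, held by 6.02%, had none either. The same was true of TGANTCA, held by 6.75%. No methylation or binding was measured, so these are letters and not sites.

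Levels below are CPM on library sizes scaled by the trimmed mean of M values (TMM). TMM gave library 11 an effective size of 38583156 beside a total of 53586148 counts, while the other libraries stayed near their totals. The same number of counts therefore gives a higher CPM in library 11. Slitrk5 was the highest of the 6 on this scale. In untreated lentivirus libraries 1 to 4 it held 90.0, 90.7, 92.3 and 87.7 CPM, and in treated libraries 5 to 8 it held 94.1, 94.2, 95.8 and 92.4 CPM. In the empty-vector libraries it held 0.229, 0.22, 0 and 0.167 CPM untreated and 0.0905, 0.207, 0.197 and 0.141 CPM treated. Every lentivirus library lay far above every empty-vector library, and the groups of a vector lay close together. Summed over libraries, 19610 counts stood against 35 in untreated cells, a ratio of depth-scaled counts of 537 (95% counting interval 386 to 771). In treated cells 21491 counts stood against 37, a ratio of 586 (425 to 833). Counting intervals cover counting error only. In bulk RNA, fewer cells holding a transcript and less of it per cell cannot be told apart.

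Fam135b held 36.0, 43.1, 41.1 and 38.4 CPM in libraries 1 to 4 and 45.9, 42.1, 43.7 and 37.8 CPM in libraries 5 to 8. With the empty vector it held 0.0882, 0.0169, 0.156 and 0 CPM untreated and 0.217, 0.0518, 0.0493 and 0.0706 CPM treated. The lentivirus libraries were high throughout but spread more widely than those of Slitrk5, and the treated empty-vector maximum was library 13. The ratio was 690 (395 to 1340) in untreated cells, where 6 of the 12 empty-vector counts came from library 11 and the ratio without it was 1120 (516 to 3060). In treated cells it was 442 (292 to 706), from 9641 counts against 22.

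Gxylt2, the xylosyltransferase, held 20.2, 20.0, 21.6 and 19.7 CPM in libraries 1 to 4 and 21.5, 20.3, 20.5 and 20.2 CPM in libraries 5 to 8. With the empty vector it held 0.0176, 0.0507, 0.0518 and 0 CPM untreated and 0.0362, 0.121, 0.0822 and 0.0706 CPM treated. The treated and untreated lentivirus libraries covered nearly the same range. The ratio was 708 (325 to 1930) untreated, from 4432 counts against 6, and 264 (167 to 446) treated, from 4707 against 18.

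Tmtc2, the O-mannosylation protein, held 24.8, 24.9, 23.9 and 25.2 CPM in libraries 1 to 4 and 24.9, 24.6, 25.4 and 24.5 CPM in libraries 5 to 8. Untreated empty-vector libraries held 0.0353, 0.0169, 0.207 and 0 CPM, while treated ones held 0, 0.0345, 0 and 0 CPM. Its lentivirus libraries were even, and its empty-vector counts came mainly from libraries 11 and 14. The untreated ratio was 467 (261 to 936) from 11 empty-vector counts, and 1400 (477 to 6770) without library 11, which left 3 counts. The treated ratio was 2870 (793 to 23700) from 2 counts, both in library 14. Without that library no count remained, and the level was at least 1430-fold higher with the lentivirus, taking a floor of 3 counts over the group.

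Fhit, the diadenosine polyphosphate hydrolase, held 13.8, 14.3, 13.9 and 13.7 CPM in libraries 1 to 4 and 13.4, 14.3, 13.0 and 14.9 CPM in libraries 5 to 8. With the empty vector it held 0.106, 0.0507, 0 and 0.0558 CPM untreated and 0.0724, 0.0518, 0.0329 and 0.0706 CPM treated. The groups of each vector overlapped one another. The ratio was 242 (138 to 469) untreated and 247 (144 to 464) treated, from 12 and 13 empty-vector counts, none of them in library 11.

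Cyp39a1, the oxysterol hydroxylase, was the lowest of the 6 by CPM. It held 10.0, 8.77, 9.25 and 10.0 CPM in libraries 1 to 4 and 7.98, 8.87, 8.31 and 9.04 CPM in libraries 5 to 8. With the empty vector it held 0.0353, 0.0676, 0.233 and 0 CPM untreated and 0, 0.0173, 0 and 0.0177 CPM treated. Library 11 was the highest of the untreated empty-vector libraries. The untreated ratio was 132 (79.6 to 236), the smallest of the 12 ratios, and 268 (123 to 731) without library 11. The treated ratio was 988 (273 to 8170), from 1958 counts against 2.

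**Figure D1:**
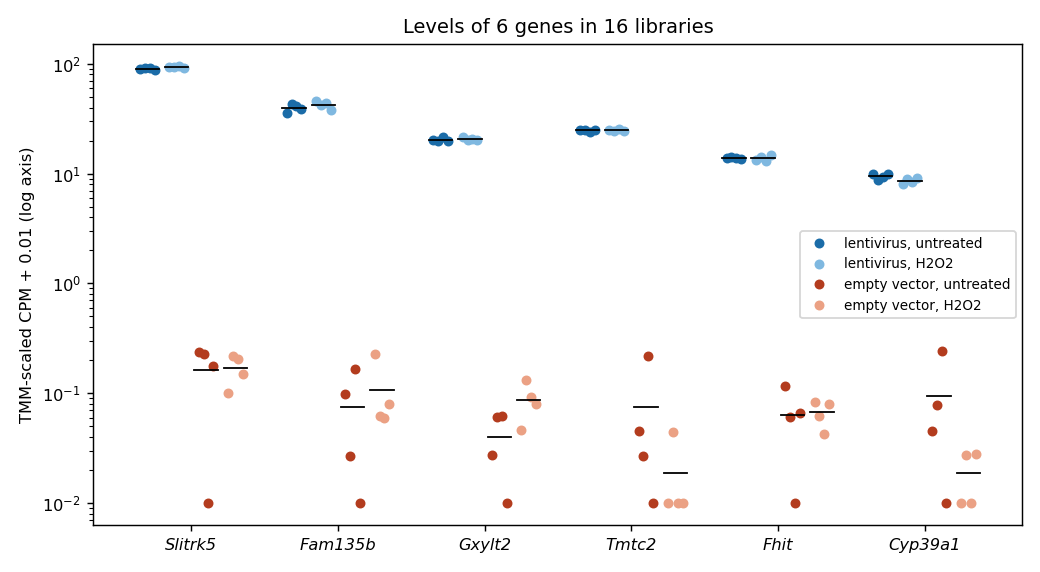
TMM-scaled CPM plus 0.01 on a log axis for the 6 genes, with 1 point per library, 4 libraries in each of the 4 groups, and a line at each group mean. Points on 0.01 are libraries with 0 counts. All lentivirus libraries sit above 7 CPM and all empty-vector libraries below 0.3 CPM.

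For each of the 6 genes the libraries of the vectors did not overlap, as the choice of the genes fixed. Over all tested genes, every empty-vector library lay below every lentivirus library for 25.6% in untreated and 34.8% in treated cells. The median over the 6 genes of the empty-vector level was 0.217% of the lentivirus level untreated and 0.199% treated. By library, the 6 genes together held 29, 25, 25 and 12 counts in libraries 9 to 12 and 23, 28, 22 and 21 counts in libraries 13 to 16. These were 0.258%, 0.213%, 0.327% and 0.113% of the summed lentivirus level untreated, and 0.204%, 0.236%, 0.177% and 0.181% treated. Each empty-vector library thus kept a small residue, and library 12 kept the least, with counts for 2 of the 6 genes.

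Across the whole table, 27 genes had means of at least 5 CPM in both lentivirus groups and below 0.5 CPM in both empty-vector groups, of 10071 genes at or above 5 CPM with the lentivirus. The 6 genes took places 1, 3, 5, 7, 9 and 13 among them by untreated lentivirus CPM. Just inside the lower limit stood Itga8 and Pipox, at 5.09 and 5.17 CPM in untreated lentivirus cells. With the stricter limits of 10 CPM and 0.1 CPM, 5 genes remained, and 4 of them were Fam135b, Gxylt2, Tmtc2 and Fhit. Slitrk5 missed on its empty-vector means of 0.154 and 0.159 CPM, and Cyp39a1 on its lentivirus means of 9.51 and 8.55 CPM. The opposite pattern, high with the empty vector and near 0 with the lentivirus by the same limits, held for 48 genes.

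**Figure D2:**
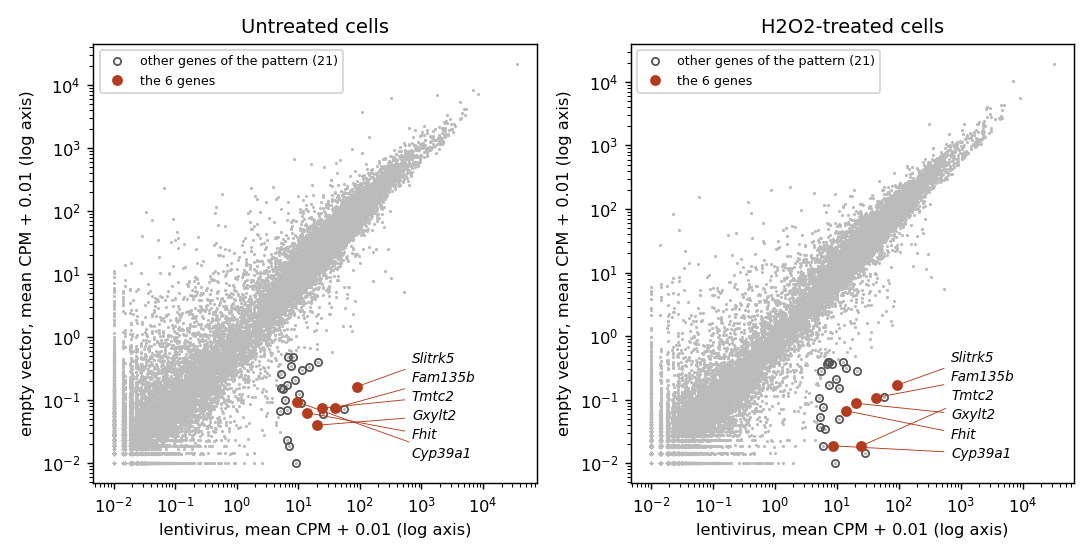
Mean TMM-scaled CPM plus 0.01 with the lentivirus against the empty vector, on log axes, for all genes of the count table, in untreated and in treated cells. Filled points are the 6 genes and open circles the other 21 genes of the 27 with the same pattern, all of which lie below 0.5 CPM with the empty vector.

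Whether H2O2 moved the 6 genes was not part of their choice, and was tested in one edgeR quasi-likelihood fit over all genes. None was called in lentivirus cells, where no gene of the table was called lower (0.0%) or higher (0.0%) at an adjusted p under 0.05, and 255 genes had an unadjusted p under 0.05. A fit on the 8 lentivirus libraries alone called 121 genes and DESeq2 called 1, none of them among the 6. Slitrk5 held 90.2 ± 1.89 CPM untreated and 94.1 ± 1.36 CPM treated, and was the only one of the 6 whose groups did not overlap by CPM, with all 4 treated libraries above the untreated ones. Its log2 change was 0.06 (SE 0.215, interval −0.36 to 0.48, adjusted p = 1.0). By deposited FPKM, which scales by gene length and depth, its groups overlapped, at 21.2 to 23.69 untreated and 23.4 to 25.71 treated. All 4 treated libraries lay above all untreated ones for 4.6% of tested genes.

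Fam135b rested at 39.7 ± 3.1 and 42.4 ± 3.4 CPM, with a log2 change of 0.10 (SE 0.272, interval −0.44 to 0.63). Gxylt2, at 20.4 ± 0.833 and 20.6 ± 0.584 CPM, had a log2 change of 0.02 (interval −0.34 to 0.37). For Tmtc2 the means were 24.7 ± 0.561 and 24.9 ± 0.379 CPM and the log2 change 0.01 (interval −0.58 to 0.60). Groups of these 3 genes overlapped. Fhit stood at 13.9 ± 0.271 and 13.9 ± 0.83 CPM, with a log2 change within −0.38 to 0.38. Cyp39a1 was the only member whose 4 treated libraries all lay below the untreated mean on the CPM scale, although its groups overlapped. Its means were 9.51 ± 0.614 and 8.55 ± 0.49 CPM and its log2 change −0.15 (SE 0.325, interval −0.79 to 0.48). The edgeR adjusted p was 1.0 for every member. The biological coefficient of variation was 23.1% over all 16 libraries and 5.28% without library 11, where the intervals were narrower. Without it the log2 interval was −0.01 to 0.13 for Slitrk5 (adjusted p = 0.417), −0.07 to 0.25 for Fam135b and −0.33 to 0.02 for Cyp39a1 (adjusted p = 0.448). For Gxylt2, Tmtc2 and Fhit it was −0.10 to 0.13, −0.10 to 0.12 and −0.12 to 0.11. All 6 intervals still held 0.

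**Figure D3:**
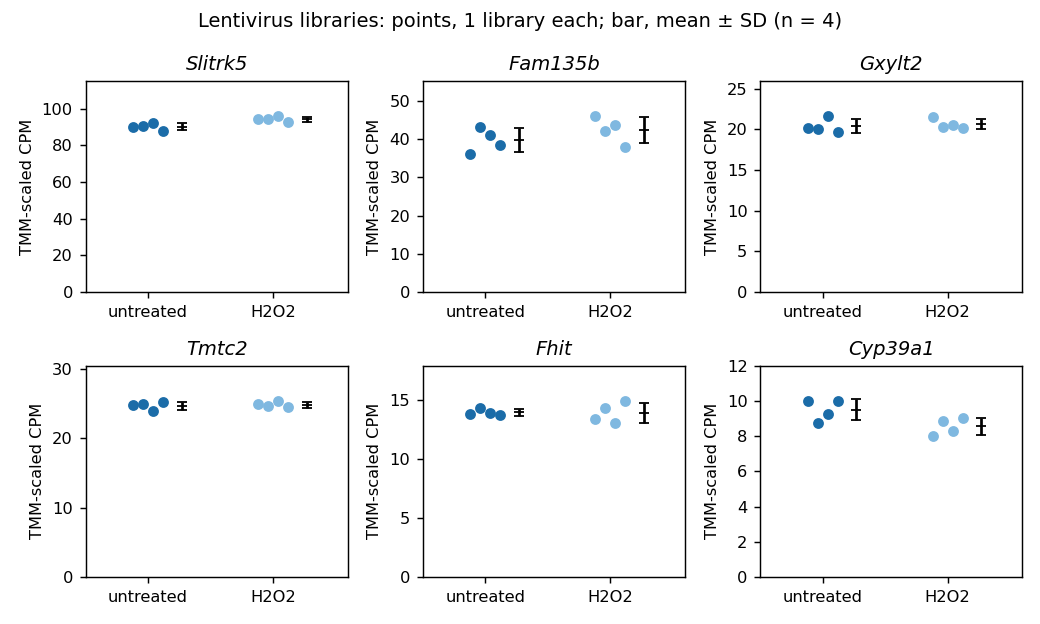
TMM-scaled CPM of the 6 genes in the lentivirus libraries, untreated and treated with H2O2, on axes that start at 0. Each point is 1 library and the bar is the mean ± SD of 4 libraries. The untreated and treated points overlap for every gene but Slitrk5, whose means were 90.2 and 94.1 CPM.

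In empty-vector cells each gene had 2 to 37 counts per group, and the 6 genes had passed the filter on low counts through the lentivirus groups, so the residue is described without a test of members. No gene of the table was called there for H2O2 (0.0% in each direction), with 2120 genes at an unadjusted p under 0.05. Without library 11 edgeR called 17 genes lower (0.116%) and 18 higher (0.123%), and DESeq2 on all libraries called 38. Gxylt2 had 6 counts untreated and 18 treated. Tmtc2 had 11 and 2, with 8 of the 11 in library 11, and 3 and 2 without it. Cyp39a1 had 15 and 2, with 9 of the 15 in library 11, and 6 and 2 without it. Slitrk5, Fam135b and Fhit had 35 and 37, 12 and 22, and 12 and 13 counts. The residue thus held too few counts to follow H2O2 in it.

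Levels between genes can be set side by side only per length, and the deposited FPKM serve for that. By FPKM in untreated lentivirus cells the order was Slitrk5 at 22.7 ± 1.05, Fhit at 21.7 ± 0.517, Tmtc2 at 5.66 ± 0.0206, Fam135b at 5.24 ± 0.505, Cyp39a1 at 3.85 ± 0.134 and Gxylt2 at 3.27 ± 0.177. The genes fell into an upper pair and a lower set of 4. Slitrk5 and Fhit overlapped in range, as did Tmtc2 and Fam135b, while the other neighbours in the order did not. After H2O2 the FPKM were 24.5 ± 1.0 for Slitrk5, 22.0 ± 1.14 for Fhit, 5.75 ± 0.531 for Fam135b, 5.74 ± 0.185 for Tmtc2, 3.65 ± 0.224 for Cyp39a1 and 3.34 ± 0.142 for Gxylt2. There Fam135b overlapped Tmtc2, and Cyp39a1 overlapped Gxylt2. Fhit was in the fifth place by CPM and in the second by FPKM.

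The spread of the level between libraries of a group was set beside counting error. Tmtc2 had a coefficient of variation of 2.27% untreated and 1.52% treated on the CPM scale, under the 2.74% and 2.66% that counting error alone would give. Slitrk5 varied by 2.1% and 1.45%, beside 1.43% and 1.37% from counting. Fam135b varied most, by 7.82% and 8.03%, although counting error would give 2.16% and 2.04%. Cyp39a1 varied by 6.45% and 5.74% (counting 4.43% and 4.53%) and Gxylt2 by 4.09% and 2.83% (counting 3.02% and 2.92%). Fhit changed place between the groups, at 1.94% untreated and 5.96% treated (counting 3.65% and 3.55%). On the FPKM scale Fam135b varied by 9.64% and 9.23% and Tmtc2 by 0.364% and 3.22%. These are spreads of 4 libraries each, and differences in spread between genes were not tested.

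Closeness between genes was measured as the root mean square difference of log2(FPKM + 0.1) over all 16 libraries. Slitrk5 and Fhit were each other's nearest gene in the whole table, at 0.471 (Pearson r = 0.996 over the same libraries). Fam135b and Tmtc2 were likewise each other's nearest, at 0.258 (r = 0.997). For Cyp39a1 the nearest gene was Gxylt2, at 0.255 (r = 0.997), but Gxylt2 lay nearer to Nrk at 0.173 and to Pkia at 0.216. The nearest genes outside the 6 were Slc40a1 for Slitrk5 (0.502) and for Fhit (0.604), Ctla2b for Fam135b (0.451) and Ctla2a for Tmtc2 (0.447). Among the 15 pairs of the 6 genes the difference ran from 0.255 to 2.03 and r from 0.987 to 0.999. The correlations mostly repeat the step between vectors that chose the genes, and the libraries share their depth and vector.

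The neighbourhood of each gene was examined through the nearest 3 tested genes on each side, 36 in all, which were not used in the choice. They lay at unequal distances, from overlap (Gm15663 and Tmtc2) to 6.43 Mb (Tgds and Slitrk5). The nearest tested gene below Fam135b was 3.09 Mb away, and the nearest below Tmtc2 2.64 Mb. They are thus the nearest tested genes and not always close ones. Slc25a27, which encodes a mitochondrial carrier also called UCP4, starts 211 bases from the start of Cyp39a1 on the opposite strand and fell with it. It held 1.98, 2.39, 3.41 and 2.28 CPM in libraries 1 to 4 and 2.18, 2.88, 3.49 and 2.26 CPM in libraries 5 to 8. In the empty-vector libraries it held 0, 0, 0 and 0.093 CPM untreated and 0, 0.0518, 0.0329 and 0.0177 CPM treated. The groups did not overlap, and Slc25a27 was lower with the empty vector by edgeR in untreated (log2 −6.59, SE 0.655, adjusted p = 1.46e-06) and treated cells (log2 −6.58, SE 0.638, adjusted p = 1.12e-06). Slc25a27 passed the filter on low counts only through the lentivirus groups, so only a fall could be called. Its summed counts were 549 against 5 untreated, a ratio of 105 (44.8 to 326), and 617 against 6 treated, a ratio of 104 (47.4 to 284).

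Gm15663, a non-coding transcript, overlaps 499 bases at the start of Tmtc2 on the opposite strand and covers the Tmtc2 window shown above. Its summed counts were 197 against 6 in untreated cells, a ratio of 31.5 (14.2 to 86.8), with 5 of the 6 in library 11 and a ratio of 154 (27.3 to 6110) without it. In treated cells 205 counts stood against 0, which makes it at least 69.0-fold higher with the lentivirus by the floor of 3 counts over the group. It was called lower with the empty vector in both comparisons (edgeR adjusted p = 0.000142 and 2.78e-05). Here too the filter was passed only through the lentivirus groups, so only a fall could be called. Whether the counting used strand is not given, so reads of Gm15663 and of Tmtc2 cannot be told apart where they overlap.

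Slitrk6, another member of the Slitrk family, is the nearest tested gene below Slitrk5 on chromosome 14, at 0.92 Mb. It was low in the lentivirus libraries, at 0.33 ± 0.0854 and 0.318 ± 0.0541 CPM, and had 72 counts against 1 in untreated and again 72 against 1 in treated cells. The ratios were 69.0 (12.0 to 2760) and 72.7 (12.6 to 2910), and it was called lower with the empty vector in both (edgeR adjusted p = 3.39e-06 and 2.86e-06). Like Slc25a27 and Gm15663, Slitrk6 passed the filter on low counts only through the lentivirus groups, so only a fall could be called. Near Fhit, 4930452B06Rik at 884 kb held 4.88 ± 0.606 CPM untreated and 4.88 ± 0.342 CPM treated with the lentivirus, and 0.237 ± 0.13 and 0.242 ± 0.0403 CPM with the empty vector. Its log2 changes were −4.30 and −4.32 (edgeR adjusted p = 4.54e-08 and 4.09e-08). Its ratio of 19.2 (14.5 to 25.7) untreated is far below the 242 of Fhit, so the fall was shallower.

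Other neighbours of the 6 genes moved less, not at all past the test, or the other way. Ppp4r2, a phosphatase regulatory subunit 22.7 kb from Gxylt2, fell slightly, by 0.23 and 0.21 on the log2 scale (edgeR adjusted p = 0.000459 and 0.000851). Enpp5, on the far side of Cyp39a1, had log2 values of −0.08 and −0.18 (adjusted p = 0.512 and 0.163), and Gm3839, nearest to Fhit on one side, −0.02 and −0.22 (adjusted p = 0.95 and 0.502). Rassf9, nearest to Tmtc2 on the other side but 2.64 Mb away, was higher with the empty vector, by 3.32 and 3.38 (adjusted p = 5.72e-07 and 4.01e-07). Acox2, 1.29 Mb from Fhit on the side of 4930452B06Rik, was also higher, by 2.33 and 2.02 (edgeR adjusted p = 0.00386 and 0.00748). Its levels were low, at 0.137 ± 0.0546 CPM with the lentivirus and 0.685 ± 0.594 CPM with the empty vector in untreated cells. Pla2g7, the platelet-activating factor acetylhydrolase 55.2 kb from Cyp39a1, was higher by 1.66 and 1.42 (adjusted p = 7.73e-08 and 3.66e-07), while Adgrf5 at 208 kb was lower by log2 values of −1.15 and −1.34 (adjusted p = 3.73e-06 and 8.28e-07). Clic5, a relative of CLIC4 at 437 kb from Cyp39a1, had 3 counts with the lentivirus against 56 in untreated cells and 2 against 36 in treated cells. Those are 19.5-fold (6.33 to 97.2) and 17.8-fold (4.59 to 153) higher with the empty vector, and both were called (edgeR adjusted p = 0.000873 and 0.00394). Library 11 held 26 of the 56 counts, and without it the untreated ratio was 12.8 (3.98 to 65.6). The neighbours of Cyp39a1 thus held genes that fell and genes that rose within 0.5 Mb.

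Of the 36 neighbours, 12 were called lower and 10 higher with the empty vector in untreated cells, beside 24.3% and 29.0% of all tested genes. In treated cells 13 were lower and 9 higher, beside 20.0% and 22.1%. Without library 11 the counts were 15 and 11 untreated and 17 and 12 treated, beside 37.3% and 37.0%, and 37.2% and 36.6%, of the genes tested then. The median log2 change was −0.09 untreated and −0.165 treated, and 0.0256 and −0.0115 over all tested genes. A call in one direction in both comparisons with at least 2-fold change in each was met by 11 neighbours, or 30.6%, and by 14.5% of all tested genes. Around Fam135b no neighbour met it, and around Cyp39a1 4 of 6 did. These counts pool neighbours at all distances up to 6.43 Mb. Among the 11, Slitrk6, Slc25a27, Gm15663 and Gm48970 passed the filter on low counts only with the lentivirus and could only be called lower. Gm48970 lies 5.81 Mb from Slitrk5. Clic5 passed it only with the empty vector and could only be called higher. Reads of Gm15663 and of Tmtc2 cannot be told apart where they overlap.

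**Figure D4:**
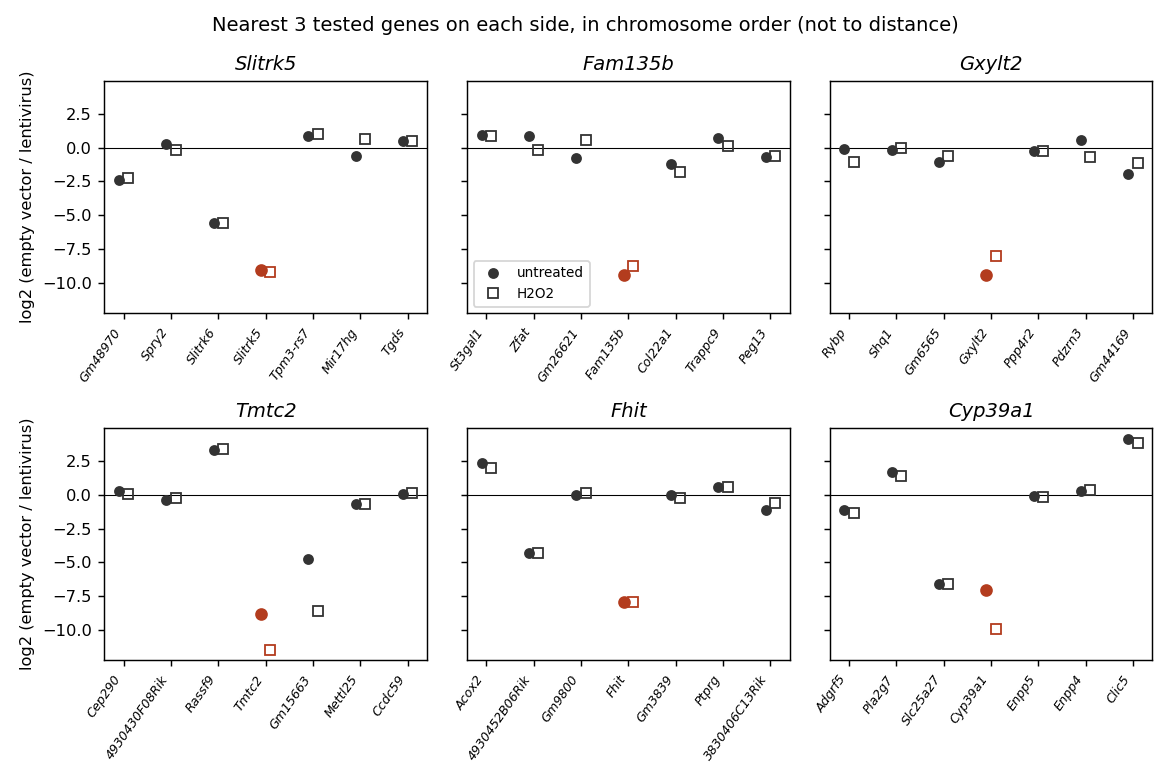
Log2 ratio of empty vector to lentivirus from the edgeR fit for the 3 nearest tested genes on each side of each of the 6 genes, in chromosome order and not to distance, in untreated (filled) and treated (open) cells. The 6 genes themselves are in red, from summed counts. Slc25a27 beside Cyp39a1 (−6.59 and −6.58), Slitrk6 beside Slitrk5 (−5.56 and −5.60) and Gm15663 beside Tmtc2 lie low with their neighbour, while Rassf9 and Clic5 lie above 0. The treated Gm15663 point rests on 0 empty-vector counts.

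Paralogs and partners of the 6 genes were taken from a list by function, 40 genes of which 27 were tested. They were called lower in 13 and higher in 5 cases in untreated cells, and lower in 8 and higher in 3 in treated cells, with the same background shares as above (24.3% and 29.0%, 20.0% and 22.1%). Without library 11 the counts were 16 and 7 untreated and 15 and 7 treated, beside 37.3% and 37.0%, and 37.2% and 36.6%, of the genes tested then. The median log2 change was −0.39 untreated and −0.14 treated. The deepest fall among the tested relatives by fitted log2 change was that of Slitrk6, described above.

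Fam135a, the closest paralog of Fam135b, fell in both comparisons but to a much smaller extent. It held 20.3, 21.2, 21.7 and 19.5 CPM in libraries 1 to 4 and 22.1, 21.6, 21.8 and 20.4 CPM in libraries 5 to 8. With the empty vector it held 5.36, 5.21, 7.31 and 5.28 CPM untreated and 5.47, 5.28, 5.37 and 4.89 CPM treated. The groups did not overlap, and the log2 changes were −1.84 and −2.03 (edgeR adjusted p = 1.56e-09 in treated cells). By contrast Gxylt1, the paralog of Gxylt2 with the same enzyme activity, was not called, at log2 0.24 untreated and −0.09 treated (adjusted p = 0.654 in treated cells), and held 22.9 ± 0.666 CPM with the lentivirus and 21.5 ± 0.329 CPM with the empty vector after treatment. Poglut1, which adds the glucose that Gxylt enzymes extend, fell by 0.50 and 0.37 on the log2 scale.

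Among the partners of Slitrk5, the receptor phosphatase gene Ptprf fell from 0.968 ± 0.12 to 0.0627 ± 0.0354 CPM untreated (log2 −3.91) and by log2 −5.13 treated (edgeR adjusted p = 7.59e-07). Like Slitrk6, Ptprf passed the filter on low counts only through the lentivirus groups, so only a fall could be called. Ptprs, of the same receptor family and far more abundant, rose by 0.57 and 0.37 on the log2 scale (adjusted p = 0.000108 treated). Ptprd, also of that family and in the same list, had 2 counts over all libraries and was not tested. In the Tmtc family, Tmtc4 was lower with the empty vector, at log2 −1.46 and −1.38 (adjusted p = 5.82e-05 treated), Tmtc3 was called higher in untreated cells (log2 0.64) and not in treated cells (log2 0.20), and Tmtc1 had 17 counts in all libraries and was not tested. Without library 11 Tmtc3 was called higher in both, at log2 0.42 and 0.20 (edgeR adjusted p = 4.44e-08 and 0.000229). The difference between the comparisons was not tested, for Tmtc3 or for the genes below.

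Of the nucleotide hydrolases and transferases related to Fhit, Hint2 and Galt were called lower in both comparisons, with log2 values of −1.06 and −0.76 for Hint2 and −0.51 and −0.60 for Galt. Hint1, the most abundant relative, was called lower in untreated cells (log2 −0.43) and not in treated cells (log2 −0.14, edgeR adjusted p = 0.317), although a fit on the treated groups alone called it. In the sterol and bile acid list of Cyp39a1, Cyp46a1, which makes the 24-hydroxycholesterol that Cyp39a1 uses, was higher with the empty vector, at log2 0.67 and 0.85 (adjusted p = 0.000531 treated). Hsd3b7, a later step of the same pathway, was higher by 0.71 and 1.05 (adjusted p = 0.00748 treated), and Amacr lower by log2 −0.57 and −0.37. Cyp7b1, the closest paralog in function, had 1 count over all libraries.

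**Figure D5:**
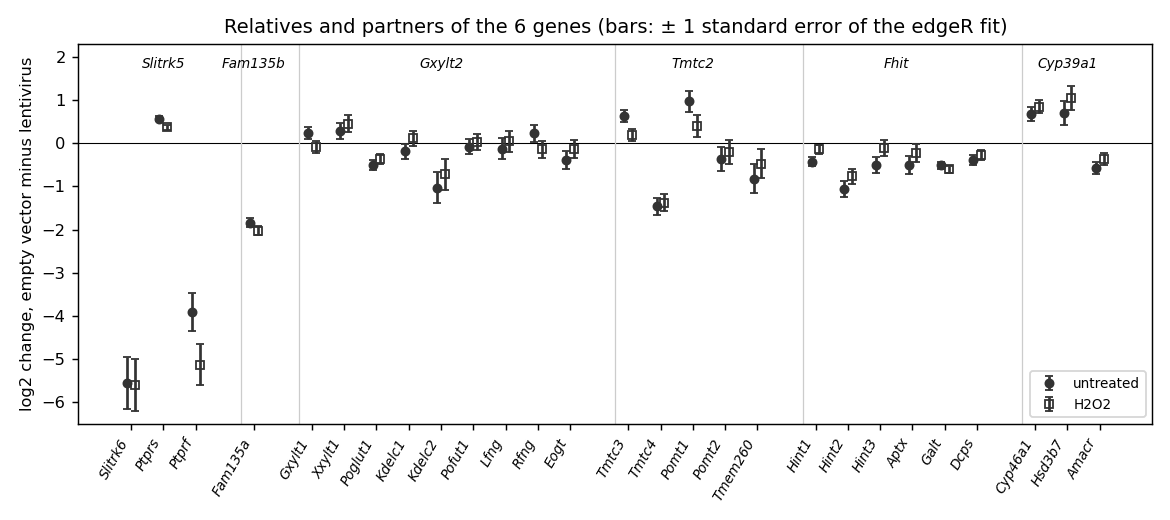
Log2 change, empty vector minus lentivirus, of the 27 tested relatives and partners, grouped under the gene they belong to, in untreated (filled) and treated (open) cells. Bars are ± 1 standard error of the edgeR fit. Slitrk6, Ptprf and Fam135a lie lowest, and most others lie within 1 unit of 0.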

How the data were processed

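RNA-seq was analysed in 16 libraries of 6DT1 cells. Reads were processed with cutadapt, STAR and RSEM on mm10, per the submitters' processing notes (versions, annotation and strandedness: not given in the sources used here). Whole-number counts for 25745 genes, possibly rounded from RSEM estimates, were deposited, with FPKM for 25372 genes, which the authors scaled by length and depth. The 6 genes and all gene lists were chosen with earlier results of these data known. Tests used edgeR 4.0.16 (R 4.3.3), quasi-likelihood, robust, TMM, filterByExpr, one coefficient per group, Benjamini-Hochberg adjusted p under 0.05. Standard errors are log2 change over the square root of F, and intervals are approximate. Ratios of summed, depth-scaled counts carry exact 95% counting intervals. Positions came from GENCODE vM21, and all symbols matched. No 2 libraries agreed within sampling noise (lowest chi-square per degree of freedom 5.06). Named relatives and neighbours were the nearest paralogs, up to 4 called relatives per list, the nearest neighbour on each side, and neighbours called with a 2-fold change in both comparisons. The text names part of these. Alternatives were RLE scaling, DESeq2 1.42.0, other filters, compared groups alone, limma 3.58.1 on log2 FPKM, and leaving out each library. The tests were checked on simulated counts. The spread, levels and outcome of that simulation are not given here. The check therefore cannot vouch for calls from the reported fit, with its biological coefficient of variation of 23.1%.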

Additional observations from a re-analysis of the deposited data

Results flagged for a closer look

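Of the 24 sets of 4 libraries (6 genes in 4 groups), 3 held a library far from the rest by Dixon's criterion, all with the empty vector. Chance marks about 1 in 20 sets of continuous values, a rate that need not hold for the few counts here. Fam135b was highest in treated library 13, at 0.217 CPM. Tmtc2 was highest in untreated library 11, at 0.207 CPM, and in treated library 14, at 0.0345 CPM, where its 2 counts stood beside 0 in the other 3 libraries, so that any count would have been marked. No lentivirus set was marked.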

How the results depend on the processing

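No paired analysis was possible because the groups share no library numbers. The median empty-vector level of the 6 genes in treated cells, 0.199% of the lentivirus level, was 0.263% by deposited FPKM and 0.165% to 0.213% when leaving out 1 library. By CPM 2 of the 6 genes kept their place in the order by FPKM over the 8 lentivirus libraries, 10 of the 18 nearest genes were shared with log2(FPKM + 1), and the stricter limits left 5 of 27 genes with the pattern. Genes called for H2O2 numbered 121 in lentivirus cells with only the groups compared and 1 with DESeq2. In empty-vector cells they numbered 38 with DESeq2 and 0 to 35 when leaving out 1 library, the upper value being without library 11. Genes called lower with the empty vector numbered 2330 untreated and 1871 treated with a filter of 10 CPM, 1996 and 5308 with only the groups compared, 1911 treated with limma on log2(FPKM + 0.1), and 3041 to 5449 untreated and 2419 to 5432 treated when leaving out 1 library, the upper values being without library 11. For neighbours, lower and higher calls were 5 and 6 untreated and 5 and 5 treated with the 10 CPM filter. Higher untreated calls were 4 with only the groups compared and 6 with each limma setting. In treated cells, limma on filtered FPKM gave 7 lower calls and without a filter 5 higher calls. For relatives, 3 were higher untreated with the 10 CPM filter. With only the groups compared, 8 were lower and 3 higher untreated, and 16 and 7 treated. Limma gave 8 lower untreated with log2(FPKM + 0.1) and without a filter, and 4 lower treated with either pseudocount or 5 without a filter. Leaving out 1 library gave 6 to 15 lower and 3 to 7 higher treated relatives. Changes that crossed 0 were small or rested on few counts. For H2O2 in lentivirus cells Fhit gave log2 values of 0.00013 with RLE and 0.017 with each limma setting, and −0.038 to 0.026 when leaving out 1 library, where Tmtc2 gave −0.0056 to 0.020 and Gxylt2 −0.0035 to 0.046. In empty-vector cells Fhit gave 0.0037 with no filter, 0.055 with log2(FPKM + 1), 0.32 with log2(FPKM + 0.1), and −0.32 to 0.50 when leaving out 1 library, where Slitrk5 gave −0.36 to 0.17 and Fam135b −0.034 to 1.38. Between vectors, Gxylt1 treated gave 0.018 with log2(FPKM + 1) and 0.022 with log2(FPKM + 0.1), and Gm3839 untreated 0.00044 with RLE. When leaving out 1 library, Gm3839 gave −0.11 to 0.12 and Gm9800 −0.12 to 0.11 untreated, and Gm9800 −0.080 to 0.25 and Gm6565 −1.54 to 0.28 treated. The cause was not tested. No setting called H2O2 for any of the 6 genes in lentivirus cells. Depth limits the empty-vector levels, which rest on 2 to 37 counts per gene and group.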

Other observations

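The 27 genes that were high with the lentivirus and near 0 with the empty vector had a median span of 73.8 kb, and 11 of them (40.7%) spanned over 80 kb, a limit chosen after the values were seen. Over the genes with at least 5 CPM with the lentivirus the median span was 24.0 kb and 16.1% spanned over 80 kb. Fhit, Tmtc2, Fam135b, Gxylt2 and Cyp39a1 are among the 11 and raise both the median and the share of the 27. Values without the 6 genes were not taken, so these spans do not show length as a trait of the pattern. Pkia at 78.7 kb and Rnf152 at 79.8 kb lay just under the limit, and Cyp39a1 at 84.0 kb just over it. Outside the 6 genes, spans ran from 2.47 kb for Ctla2a to 647 kb for Mctp1. Further genes of the 27 outside the 6 were Slc40a1, which encodes the iron exporter ferroportin, at 54.4 CPM untreated with the lentivirus and 0.0611 CPM with the empty vector, and Mapt, which encodes the microtubule-associated protein tau, at 20.9 and 0.395 CPM.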
